A study of Homo sapiens with 6 samples.

Results

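Glypicans and syndecans are the 2 families of core protein that carry heparan sulfate, a long sulfated sugar chain, on the cell surface. All 10 human genes of these families, the glypicans GPC1 to GPC6 and the syndecans SDC1 to SDC4, were taken by symbol from a gene table of 58735 genes, and each was found in 1 row. They were measured by RNA-seq in SY5Y, a human neuroblastoma cell line, in 3 libraries of cells that overexpressed DLX5, a homeobox transcription factor, and in 3 control libraries. All cells were grown in DMEM/F12 with fetal bovine serum and penicillin/streptomycin. The labels do not say how DLX5 was introduced, what the control cells carried or whether a group was a single clone. Nor do they say that replicates were separate cultures, and the spread on which the p-values rest may therefore be technical.

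A glypican is held to the outer leaflet of the membrane by a lipid anchor (glycosylphosphatidylinositol) and carries its chains close to the membrane. A syndecan spans the membrane, carries its chains far from it and has a short cytoplasmic tail that binds scaffold proteins and kinases. The chains bind growth factors of the FGF, WNT, Hedgehog and midkine families as well as matrix proteins, and present or sequester them. In the nervous system these proteoglycans are known for axon guidance and synapse formation, and GPC2 is a surface antigen of neuroblastoma to which antibody and T cell therapies have been directed.

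Each library held 14644077 to 16886026 reads assigned to genes, of which 7.11% to 9.13% were mitochondrial. DLX5 itself stood at 1569 to 1677 CPM (counts scaled to a common library size with TMM factors, a normalisation that assumes most genes are unchanged) in the 3 libraries labelled as overexpressing it and at 12.4 to 13.8 CPM in the controls, so each library matched its label. All 11 markers of sympathetic neuroblastoma cells were detected in the controls, and all 11 were lower with DLX5. Their summed level was 2041 to 2164 CPM with DLX5 against 5651 to 6157 CPM in control. TH was low throughout, at 1.44 to 1.83 CPM in the controls and 2 counts over the DLX5 libraries. Of 9 fibroblast markers 8 were higher and 0 lower (6575 to 6834 CPM against 1439 to 1491 CPM), of 7 epithelial markers 5 were higher and 1 lower (363 to 385 CPM against 20.4 to 24.1 CPM), and of 5 tested of 6 Schwann cell markers 3 were higher and 1 lower (15.2 to 15.3 CPM against 4.93 to 6.95 CPM). The 8 endothelial and blood markers summed to 2.65 to 3.91 CPM against 1.32 to 2.07 CPM, with CD3E at 0 counts, and 1 of the 4 tested was higher. Among all tested genes 29.8% were higher and 28.8% lower. KRT18 alone held a mean of 312 CPM with DLX5, and COL3A1 and COL1A1 held 4383 and 1947 CPM. The epithelial and fibroblast sums with DLX5 thus rested mainly on those genes. The part of these marker changes in the results on glypicans and syndecans was not tested. In bulk RNA fewer cells of a type and less RNA per cell cannot be told apart.

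With DLX5 most glypicans rose, led by GPC3 at 14.9-fold and GPC4 at 9.48-fold, while the syndecans went both ways, from 2.41-fold higher for SDC4 to 1.28-fold lower for SDC1. Of the 6 glypicans 5 were higher and 1, GPC2, was lower. Of the 4 syndecans 2 were higher (SDC4 and SDC3) and 2 were lower (SDC1 and SDC2). All 10 genes could be tested and all 10 passed the threshold, a Benjamini-Hochberg adjusted p under 0.05 in edgeR's quasi-likelihood test over all 17269 genes tested. The count has to be read against a broad response, since 58.6% of all tested genes passed (29.8% as higher and 28.8% as lower). The values of the 2 groups did not overlap for any of the 10 genes, and the same held for 62.5% of all tested genes. A rise of at least 2-fold was found for 6 of the 10 genes, against 11.3% of all tested genes, and one of at least 4-fold for 2, against 5.04%. The median log2 fold change was 1.48 over the glypicans and 0.003 over the syndecans, beside -0.002 over all tested genes.

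**Figure D1:**
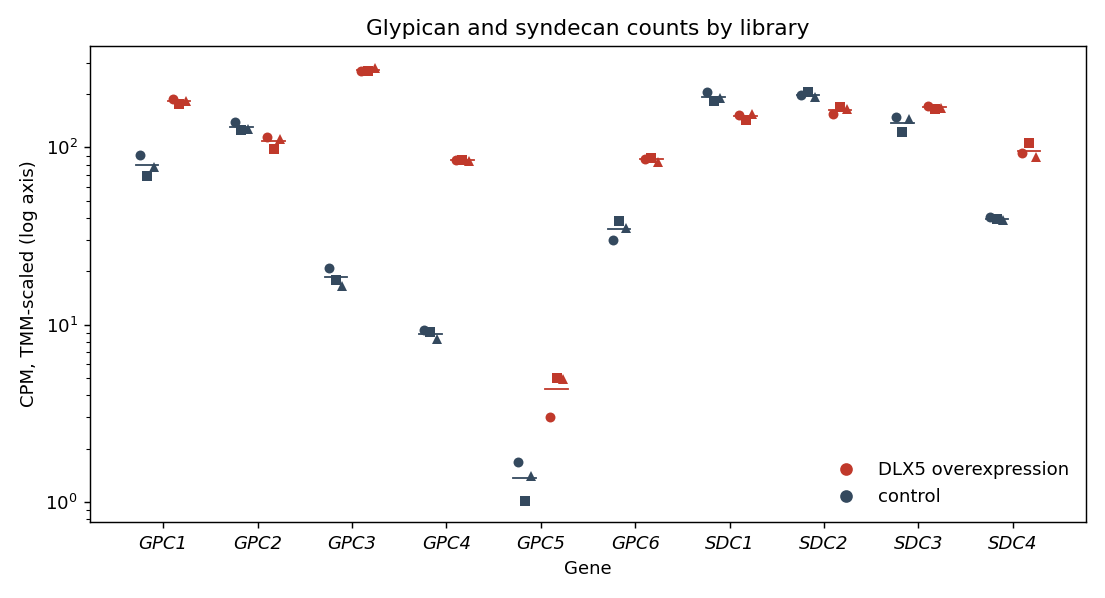
Level of each gene in each library, in TMM-scaled CPM on a log axis, with control libraries in dark blue and DLX5 libraries in red, replicates 1 to 3 as circle, square and triangle, and the mean of each group as a bar. GPC3 and GPC4 show the widest gaps between groups, and GPC2, SDC1 and SDC2 lie lower in the DLX5 libraries.

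GPC3 is known as an oncofetal glypican that is lost in an overgrowth syndrome and restrains Hedgehog signalling. It is annotated on chromosome X from 133535745 to 133985895 on the minus strand (ENSG00000147257, GRCh38). Its level was 270.2, 270.4 and 282 CPM in the DLX5 libraries and 21.0, 17.9 and 16.6 CPM in the controls. Every DLX5 library was thus more than 10-fold above every control. The group means were 274 ± 6.73 and 18.5 ± 2.26 CPM (SD, n = 3), which gives a log2 fold change of 3.89 ± 0.08 (± SE here and for the other genes, edgeR, adjusted p = 3.35e-24). Of the 17269 tested genes 281 had a larger fitted rise.

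GPC4, a glypican that astrocytes are known to release to promote synapse formation, lies beside GPC3 on the same strand of chromosome X, from 133300103 to 133415490 (ENSG00000076716). It held 85.2, 84.4 and 84.2 CPM with DLX5 and 9.31, 9.11 and 8.34 CPM in control. The DLX5 libraries were nearly equal to each other and all far above the controls. Its log2 fold change was 3.25 ± 0.08 (adjusted p = 8.41e-22), and 398 genes had a larger fitted rise.

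The gap between GPC3 and GPC4 is 120 kb. Within 500 kb of either gene, a window chosen after the values were seen, 3 other protein-coding genes could be tested, and 0 of them passed as higher. PHF6 had a log2 fold change of -0.07 (adjusted p = 0.374), HPRT1 fell by 0.62 (adjusted p = 7.59e-08), and HS6ST2, which adds sulfate to heparan sulfate chains, had a log2 fold change of 0.25 (adjusted p = 0.0661). GPC3 rose more than its neighbour. Per kilobase of gene length it stood at 5.93 ± 0.174 times GPC4 in the DLX5 libraries and at 3.78 ± 0.291 times in the controls (SD, n = 3). This ratio did not overlap between the groups (exact two-sided permutation test, p = 0.1, the smallest that 3 libraries against 3 allow).

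GPC5 and GPC6 form the other tandem pair, on the plus strand of chromosome 13. GPC6, mutated in a form of short-limbed skeletal dysplasia, spans 93226842 to 94407401 (ENSG00000183098) and held 86.4, 87.6 and 83.0 CPM with DLX5 against 30.2, 38.7 and 35.2 CPM in control. Every DLX5 library exceeded the highest control by more than 2-fold, and the log2 fold change was 1.30 ± 0.08 (adjusted p = 8.1e-14). GPC5 spans 91398607 to 92873682 (ENSG00000179399) and was the least abundant of the 10, with 274 counts over all 6 libraries. It stood at 3.01, 5.04 and 4.93 CPM with DLX5 and at 1.68, 1.02 and 1.40 CPM in control, so the groups did not overlap but DLX5 replicate 1 lay well below the other 2. Its log2 fold change was 1.66 ± 0.26 (adjusted p = 4.13e-06), and 0.67 on log2(FPKM + 1) values, a scale that understates changes of low genes. A change in the proportion of the 2 genes could not be resolved. GPC6 was at 11.5 ± 3.67 times GPC5 per kilobase with DLX5 and at 14.8 ± 5.53 times in control (SD, n = 3), with overlapping libraries (exact permutation test, p = 0.5). Of the other protein-coding genes within 500 kb of GPC6, TGDS and GPR180 could be tested and did not pass (log2 fold changes 0.26 and -0.12).

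GPC1, the glypican known from brain and from tumour cells as a coreceptor of FGF2, is annotated on chromosome 2 from 240435671 to 240468078 on the plus strand (ENSG00000063660). It held 187, 177 and 183 CPM with DLX5 and 90.5, 69.2 and 77.6 CPM in control. The DLX5 libraries lay close together and about 2-fold above the highest control. The log2 fold change was 1.21 ± 0.07 (adjusted p = 1.24e-13).

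GPC2, the neural glypican and neuroblastoma antigen, was the exception among the glypicans. It is annotated on chromosome 7 from 100169606 to 100177372 on the minus strand (ENSG00000213420). Its level was 114, 98.0 and 112 CPM in the DLX5 libraries and 139, 125 and 126 CPM in the controls. The highest DLX5 library was below the lowest control, but by less than the range from lowest to highest library within either group. The log2 fold change was -0.27 ± 0.07 (adjusted p = 0.0013), a level 1.20-fold higher in control. GPC2 is known as a gene that MYCN activates in neuroblastoma. MYCN itself was at 26.2 to 26.9 CPM with DLX5 and at 4.38 to 5.36 CPM in control, a rise of 5.45-fold, so the transcription factor and GPC2 moved in opposite directions here. Whether MYCN acts on GPC2 at these levels was not tested.

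**Figure D2:**
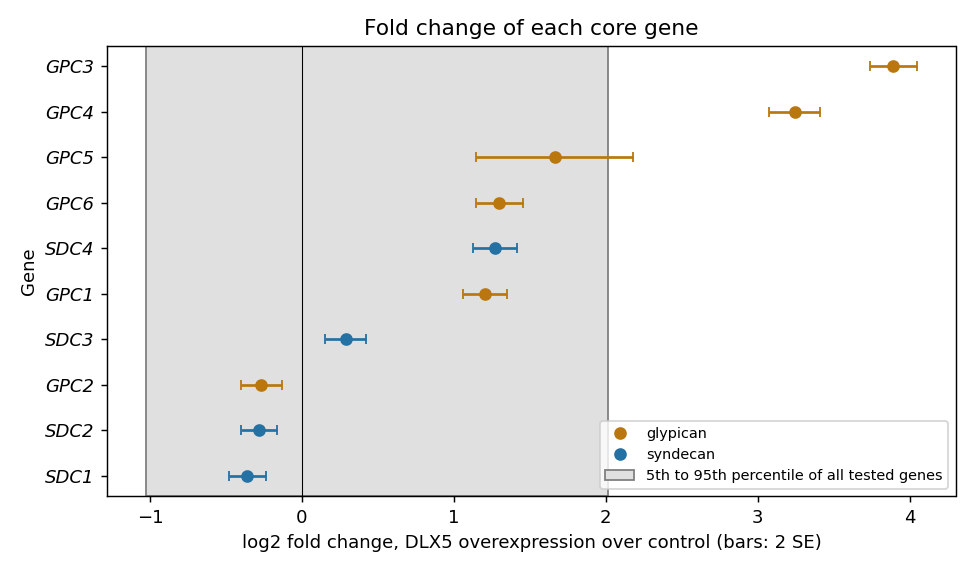
log2 fold change of each gene, DLX5 overexpression over control, with bars of 2 standard errors, glypicans in ochre and syndecans in blue. The grey band runs from the 5th to the 95th percentile of all tested genes (-1.03 to 2.02), and GPC3 and GPC4 lie above it.

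Among the syndecans SDC4 changed most. SDC4 is found in focal adhesions, where its tail is known to bind and activate protein kinase C alpha, and is annotated on chromosome 20 from 45325288 to 45348424 on the minus strand (ENSG00000124145). It held 92.9, 106 and 88.5 CPM with DLX5 and 40.7, 39.5 and 38.7 CPM in control. All DLX5 libraries were more than 2-fold above all controls, and the log2 fold change was 1.27 ± 0.07 (adjusted p = 3.69e-14). SDC3, the neural syndecan known as a receptor of pleiotrophin, lies on chromosome 1 from 30869467 to 30908761 on the minus strand (ENSG00000162512). It held 172, 165 and 167 CPM against 148, 122 and 144 CPM. The groups were separate, though the highest control came nearer to the DLX5 libraries than to the lowest control. The log2 fold change was 0.29 ± 0.07 (adjusted p = 0.000624).

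The other 2 syndecans, the most abundant of the 10 cores per length in control cells, were lower with DLX5. SDC1, known from epithelia and plasma cells (chromosome 2, 20200797 to 20225433, minus strand, ENSG00000115884), held 153, 142 and 154 CPM with DLX5 and 205, 183 and 189 CPM in control. SDC2, known from mesenchymal cells and dendritic spines (chromosome 8, 96493351 to 96611780, plus strand, ENSG00000169439), held 155, 169 and 165 CPM against 197, 206 and 192 CPM. In both genes every DLX5 library lay below every control. The log2 fold changes were -0.36 ± 0.06 for SDC1 (adjusted p = 1.68e-05) and -0.28 ± 0.06 for SDC2 (adjusted p = 0.000218). Changes of this size did not pass a stricter test against a change of 1.5-fold, added after the data were seen. In it 6 of the 10 genes passed as higher (GPC1, GPC3, GPC4, GPC5, GPC6 and SDC4) and 0 as lower, against 12.5% and 6.52% of all tested genes. In that test GPC2, SDC1, SDC2 and SDC3 each had an adjusted p of 1.

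Genes that overlap the members held few reads. The largest share was that of GPC5-AS1, with 0.73% as many counts as GPC5, and AL354811.1, antisense to GPC6, was the sole gene whose exons overlapped those of a member, over 476 bases and with 0.31% as many counts.

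Levels were compared between genes as RPKM, the CPM divided by the gene length given in the table in kilobases. In control cells the order was SDC1 (53.5 ± 3.14 RPKM), SDC2 (43.8 ± 1.59), GPC2 (34.0 ± 2.08), SDC3 (19.5 ± 2.0), SDC4 (15.2 ± 0.387), GPC1 (12.1 ± 1.65), GPC3 (6.82 ± 0.833), GPC6 (5.36 ± 0.656), GPC4 (1.80 ± 0.103) and GPC5 (0.385 ± 0.093; all SD, n = 3). No neighbours in this order overlapped in their library values. With DLX5, GPC3 moved from rank 7 to rank 1 at 101 ± 2.48 RPKM, above SDC1 (41.7 ± 1.85), SDC4 (36.6 ± 3.42) and SDC2 (36.0 ± 1.59). SDC4 overlapped both SDC1 and SDC2, and so could not be placed between them beyond the spread of the libraries. GPC2 (28.2 ± 2.28) and GPC1 (28.0 ± 0.823) overlapped as well, whereas in control GPC2 was far above GPC1. SDC3 (23.8 ± 0.507), GPC4 (17.1 ± 0.113), GPC6 (13.2 ± 0.363) and GPC5 (1.22 ± 0.322) followed without overlap.

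The family's summed message therefore turned from mostly syndecan to mostly glypican. This turn rested on GPC3, since without it the glypican sum with DLX5 stayed below the syndecan sum in every library. The 6 glypicans summed to 190, 184 and 193 RPKM in the DLX5 libraries and to 65.0, 58.0 and 58.5 RPKM in the controls, a ratio of group means of 3.12. Without GPC3 the glypican sum was 87.7 ± 2.72 RPKM with DLX5 and 53.7 ± 3.17 RPKM in control, and without both GPC3 and GPC4 it was 70.7 ± 2.65 and 51.9 ± 3.12 RPKM (SD, n = 3). None of these 3 sums overlapped between groups (exact permutation test, p = 0.1 for each, the smallest possible). The 4 syndecans summed to 137, 141 and 137 RPKM with DLX5 and to 137, 129 and 130.2 RPKM in control. These groups overlapped (exact permutation test, p = 0.2), and the ratio of 1.05 turned to just below 1 when library totals without scaling factors were used.

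The share of each gene in the summed RPKM of all 10 is a ratio within a library and needs no scaling between libraries. Glypicans made up 57.8% ± 0.908 of the sum with DLX5 and 31.4% ± 0.694 in control (SD, n = 3). GPC3 went from 3.54% ± 0.298 to 30.9% ± 0.549, and GPC4 from 0.935% ± 0.0465 to 5.22% ± 0.0603. SDC1 went from 27.8% ± 0.492 to 12.7% ± 0.5, SDC2 from 22.8% ± 1.47 to 11.01% ± 0.494, and GPC2 from 17.7% ± 0.321 to 8.63% ± 0.665. SDC3 also took a smaller share (10.1% ± 0.827 against 7.28% ± 0.162), although its own level was higher, while GPC1, GPC5, GPC6 and SDC4 took larger ones. No share overlapped between groups, and each had an exact permutation p of 0.1, which is also the adjusted p over the 10 shares. The shares of a library add up to a fixed total, so the larger share of GPC3 by itself lowers the others. They are thus not 10 separate results. In level, 62.5% of all tested genes did not overlap between groups.

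**Figure D3:**
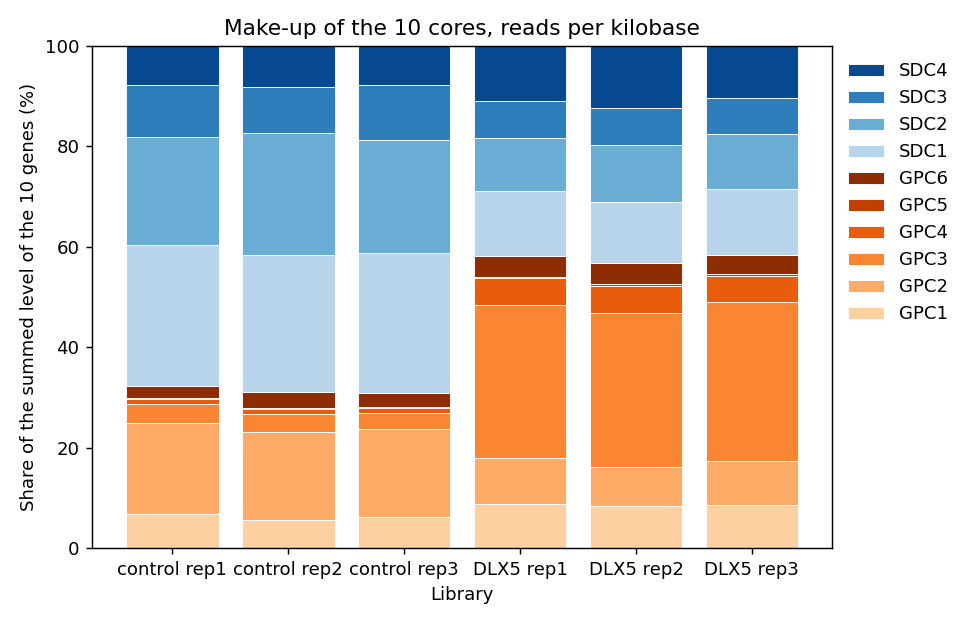
Share of each gene in the summed reads per kilobase of the 10 genes, stacked to 100% for each library, glypicans in orange and syndecans in blue. The 3 control bars hold 31.0% to 32.2% glypican and the 3 DLX5 bars 56.7% to 58.4%, and the GPC3 segment shows the largest growth.

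The promoter windows of the genes, 250 bases before to 50 after the start of the transcript, were read from RefSeq sequences on GRCh38.p14, which held 9 windows for 8 of the members: GPC1, GPC2, GPC4, GPC5, GPC6, SDC1 with 2, SDC3 and SDC4. The letters TAATTA and TAATTG, which contain the TAAT core that homeodomain proteins such as DLX5 bind, were searched on both strands and are in 0 of the 9 windows. Over all 35116 promoters of that length 4.8% hold TAATTA and 7.4% hold TAATTG. The shorter TAAT, which overlaps both, is in 3 of the 9 windows and in 50.2% of all promoters. The GC box letters GGGCGG are in 8 of the 9 and in 45.0% of all, and CACGTG, the E-box letters that MYC family proteins bind, in 0 of the 9 and in 7.3% of all. These are descriptions of the letters and not sites. The 250 bases before the start are shown for GPC4, which rose most among the genes with a window, for GPC6, the one of these without GGGCGG, and for GPC2, the glypican that fell. Capitals mark TAAT and GGGCGG on either strand, and all are written 5′ to 3′ on the strand of the gene.
GPC4 (chrX:133415490-133415739, minus strand): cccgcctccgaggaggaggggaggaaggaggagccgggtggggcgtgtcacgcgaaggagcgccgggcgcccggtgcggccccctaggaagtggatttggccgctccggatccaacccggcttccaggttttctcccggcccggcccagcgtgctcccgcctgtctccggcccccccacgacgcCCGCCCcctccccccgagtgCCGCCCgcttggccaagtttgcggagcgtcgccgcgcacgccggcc
GPC6 (chr13:93226557-93226806, plus strand): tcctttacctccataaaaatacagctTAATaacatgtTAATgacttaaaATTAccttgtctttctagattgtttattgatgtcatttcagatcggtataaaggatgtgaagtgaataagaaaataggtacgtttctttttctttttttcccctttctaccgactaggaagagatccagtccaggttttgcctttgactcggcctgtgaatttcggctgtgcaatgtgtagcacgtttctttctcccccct
GPC2 (chr7:100177382-100177631, minus strand): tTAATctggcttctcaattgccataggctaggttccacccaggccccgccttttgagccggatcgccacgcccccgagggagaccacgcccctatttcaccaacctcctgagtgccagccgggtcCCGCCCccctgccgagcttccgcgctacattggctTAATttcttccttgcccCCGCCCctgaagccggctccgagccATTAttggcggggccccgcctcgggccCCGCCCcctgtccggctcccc
GPC4 holds 2 GC boxes and no TAAT, GPC6 holds 3 TAAT and no GC box, and GPC2 holds 3 of each. The windows of GPC4 and GPC2 are rich in G and C (74.7% and 66.0%) and that of GPC6 is at 40.0%, beside a median of 58.7% over all promoters. The members that rose at least 2-fold thus included both kinds of window.

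Genes that build, edit, carry or bind the chains were followed in 9 lists of 103 genes. Of the 88 that could be tested 51 were higher and 21 lower, the other 16 did not pass, and the median log2 fold change was 0.35, beside 29.8% higher and 28.8% lower among all tested genes. For the linkage sugars that join a chain to its core, 3 of 7 genes were higher and 2 lower (median 0.13). The xylosyltransferases that start every chain were both higher, XYLT2 at 84.6 ± 5.47 against 47.2 ± 1.97 CPM and XYLT1 at 169 ± 3.42 against 127 ± 8.78 CPM. FAM20B, the xylose kinase that promotes chain growth, rose by 0.25 ± 0.06 on the log2 scale (± SE), and PXYLP1, the phosphatase that removes the same phosphate, went from 59.8 ± 1.84 to 28.2 ± 2.62 CPM. PXYLP1 overlaps ZBTB38 on the same strand, which held 69.4% as many counts.

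Of the 5 chain polymerase genes 2 were higher and 0 lower (median 0.10). EXT1, a subunit of the heparan sulfate polymerase, held 151, 149 and 148 CPM with DLX5 and 37.8, 33.1 and 36.8 CPM in control. Its groups were far apart and its fold was 4.17 (adjusted p = 1.57e-19). Its partner EXT2 changed less, by 0.50 ± 0.06 on the log2 scale. EXTL3 and EXTL1 had log2 fold changes of 0.10 ± 0.06 and -0.15 ± 0.17 and did not pass.

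The enzymes that modify the chain were mixed, with 2 of 9 tested genes higher and 3 lower (median 0.03), and 7 of the 16 listed genes had too few counts to test. HS6ST1, the more abundant 6-O-sulfotransferase, went from 96.8 ± 7.66 to 49.9 ± 1.07 CPM and its relative HS6ST3 from 2.84 ± 0.366 to 10.5 ± 0.563 CPM. The epimerase GLCE rose by 0.86 ± 0.09, and HS3ST5, a 3-O-sulfotransferase, fell by 1.47 ± 0.21 at a low level on the log2 scale. HS3ST5 overlaps the antisense gene HDAC2-AS2, with 39.3% as many counts.

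Genes that edit or break down heparan sulfate were mostly higher, 7 of 11 tested against 3 lower (median 0.60). SULF2, the sulfatase that removes 6-O-sulfate outside the cell, went from 65.8 ± 1.88 to 28.2 ± 1.11 CPM and overlaps NCOA3 on the other strand, with 87.0% as many counts. The lysosomal enzyme SGSH rose by 0.68 ± 0.07 on the log2 scale and overlaps SLC26A11, with 81.5% as many counts. Heparanase, HPSE, had 37, 26 and 23 counts in the DLX5 libraries and 0 counts in each control. Set against 3 counts for the control group as a whole, taken as the limit that a count of 0 allows, it was 28.4-fold higher. This is an approximate lower bound, since the spread of the DLX5 counts does not enter it. HPSE2, its relative without known cleaving activity, had 5 counts over the DLX5 libraries and 50 over the controls, and the log2 fold change of HPSE2 was -3.24 ± 0.60 in the count model. With so few counts its size was poorly fixed: it was -4.74 without DLX5 replicate 1, -2.71 without DLX5 replicate 2, -1.45 on log2(FPKM + 0.1) and -0.27 on log2(FPKM + 1) values, passing the threshold in each.

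Chondroitin sulfate, the other chain that SDC1 and SDC3 can carry, showed one direction. Of 14 tested enzyme genes 11 were higher, 0 lower and 3 did not pass (median 0.51). CHST15, a sulfotransferase of these chains, went from 2.40 ± 0.706 to 13.9 ± 0.8 CPM, and CHST7 from 6.38 ± 1.74 to 15.2 ± 0.187 CPM. The polymerising factor CHPF rose from 191 ± 13.4 to 339 ± 21.1 CPM and the epimerase DSE from 19.3 ± 1.71 to 38.4 ± 1.87 CPM. CHPF overlaps TMEM198, with 11.5% as many counts, and DSE overlaps TSPYL1, with 182% as many. For these and the other pathway genes the overlap is of the span from start to end. Overlap of their exons was not examined, so how far their values are affected is not known.

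**Figure D4:**
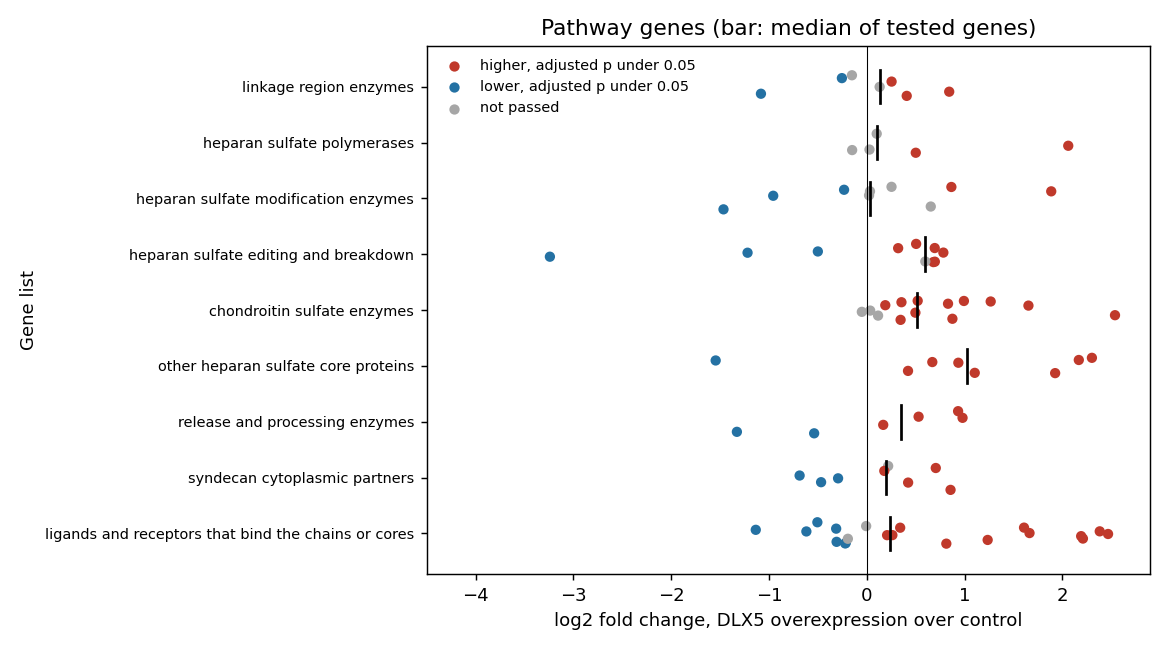
log2 fold change of the tested genes of each list, 1 point a gene, red for higher, blue for lower and grey for not passed, with the list's median as a bar. HPSE, with 0 counts in control, is left out of the points. The chondroitin sulfate enzymes have no point that passed as lower.

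Other proteins that carry heparan sulfate changed in the same direction as most glypicans, with 7 of 8 tested higher and 1 lower (median 1.02). The basement membrane proteoglycan perlecan, HSPG2, held 524, 461 and 497 CPM against 136, 108 and 147 CPM. The adhesion receptor CD44, some forms of which carry the chain, rose by 2.30 ± 0.07 on the log2 scale, the testican SPOCK1 by 2.17 ± 0.07 and agrin, AGRN, by 0.94 ± 0.07. Of 6 tested enzymes that cut or release the cores 4 were higher and 2 lower (median 0.35). FURIN, a convertase that is known to cleave GPC3, rose by 0.93 ± 0.07, and the sheddases MMP14 and ADAM10 by 0.98 ± 0.10 and 0.53 ± 0.06. MMP9 fell by 1.33 ± 0.18, and overlaps SLC12A5-AS1 with 35.6% as many counts.

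Partners of the syndecan tail went both ways, 4 of 8 higher and 3 lower (median 0.20). Syntenin, SDCBP, which binds the end of all syndecan tails, went from 60.9 ± 0.715 to 110.1 ± 6.99 CPM. Its partner in exosome formation, PDCD6IP, rose by 0.42 ± 0.06 on the log2 scale, and GIPC1, which binds SDC4, by 0.70 ± 0.07. PRKCA, the kinase that SDC4 activates, went from 416 ± 19.7 to 258 ± 8.09 CPM, opposite in direction to SDC4.

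Ligands and receptors that bind the chains or cores were tested for 20 of 22 genes, 11 higher and 7 lower (median 0.23). Pleiotrophin, PTN, the ligand of SDC3, held 243, 259 and 257 CPM with DLX5 and 49.1, 44.5 and 43.8 CPM in control. Its rise of 5.53-fold (adjusted p = 1.93e-21) stands beside 1.22-fold for SDC3 itself. The SLIT receptors ROBO1 and ROBO2, whose binding to SLIT needs heparan sulfate, rose by 2.19 ± 0.07 and 1.66 ± 0.08 on the log2 scale. The receptor phosphatases PTPRF and PTPRD, of a family that binds these proteoglycans at axons and synapses, rose by 1.61 ± 0.06 and 2.38 ± 0.15.

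Likeness of pattern was measured as the Euclidean distance between log2 CPM values over the 6 libraries after each gene's mean was removed, among tested protein-coding genes, for the glypican and the syndecan with the highest mean RPKM. Among the 3 nearest genes to GPC3 was BST1 (distance 0.218). The nearest to SDC1 were REPIN1 (0.0328), RBM10 (0.0454) and DUS1L (0.0529). With 2 groups of 3 libraries this distance rests almost wholly on the difference between the groups.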

How the data were processed

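Per the labels' protocols, SY5Y RNA was isolated with Trizol and sequenced from NEBNext Ultra RNA libraries. The authors deposited whole-number read counts for every gene. Their processing notes list HISAT2 2.0.5 and featureCounts 1.5.0-p3 with no settings, and whether counting used strand was not stated. The submitters' processing notes also name hg19, but 58724 of the 58735 genes have the start and end of GENCODE release 29, so coordinates are given as GRCh38. The deposited FPKM, made by the authors, equal the counts over gene length and 0.968 to 1.03 times the library total, and so hold the same reads.

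Genes were kept with filterByExpr and scaled by TMM. DLX5 (3 libraries) and control (3) were compared in edgeR 4.0.16 (R 4.3.3) by its quasi-likelihood test, two-sided, with Benjamini-Hochberg adjustment over 17269 genes. Standard errors are the change over the square root of F. The common biological coefficient of variation was 6.17%. Single values were compared by exact two-sided permutation over libraries (scipy 1.17.1). Chi-square per degree of freedom between replicates was 2.31 to 5.52, above the value near 1 of the same library sequenced again. These values cannot tell separate cultures from separate preparations of the same cells. On simulated counts of 16871 tested genes the DLX5 comparison recovered 46% of 50 genes changed by 1.25-fold, 86% at 1.5-fold, 96% at 2-fold and 100% at 4-fold, and called 7 of 16671 unchanged genes. The simulation changed few genes, up or down at random, all of them above a low floor of expected counts. It used the same dispersion for every gene. In the data 58.6% of tested genes passed, so these rates describe the simulated setting and do not carry over.

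The members and the gene lists were chosen with earlier results of these data known. The rule for named genes took all members, DLX5, MYCN, the 4 genes of each pathway list with the smallest adjusted p and those past it at 4-fold or more, and the 3 genes most like a member. Some genes that this rule names are not reported here. Overlapping and neighbouring genes were named after their values were seen. Each result was recomputed with upper-quartile or RLE factors, with DESeq2 1.42.0, with no filter, a filter of 1 CPM in 3 libraries, a replicate block, limma 3.58.1 on log2(FPKM + 1) and log2(FPKM + 0.1), and each library left out, and, added after the data were seen, library totals without factors and a test against 1.5-fold. Figures were drawn with matplotlib 3.10.9.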

Additional observations from a re-analysis of the deposited data

How the results depend on the processing

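Over 16 alternatives each, all 10 genes kept their direction, and in 156 of 160 cases their side of the threshold. The 4 exceptions were in the test against a 1.5-fold change, which tests a larger change by construction: GPC2 (log2 fold change -0.27), SDC1 (-0.36), SDC2 (-0.28) and SDC3 (0.29) did not pass it. That test called 0 members lower, 2158 and 1126 of all genes higher and lower in place of 5152 and 4969, and 26 and 7 genes of the pathway lists in place of 51 and 21. Over all 16, GPC3 ran from 3.71 to 3.99, GPC4 from 2.69 to 3.27, SDC4 from 1.20 to 1.33 and GPC2 from -0.33 to -0.20. GPC5 ran from 0.67 on log2(FPKM + 1) to 1.88, and the low pathway genes HPSE, HPSE2, CHST15, HS6ST3, HS3ST5, DSE, MMP9 and PTPRD were also over 1.5 times smaller on that scale, without a change of call. Of the polymerase genes that did not pass, the log2 fold change of EXTL1 went from -0.15 to -0.08 on that scale and without DLX5 replicate 2, and the log2 fold change of EXTL3 from 0.10 to 0.07 with upper-quartile factors and 0.03 with library totals. The log2 ratio of the summed syndecan level, 0.07, reversed to -0.0011 with library totals without scaling factors. The deviations of same-numbered libraries correlated at 0.056, 0.203 and -0.124, and not every library correlated best with its own number. From 3 libraries a group these values cannot settle whether the replicate numbers mark a shared batch, and the labels do not say. With the replicate number as a block GPC3 was at 3.90 and GPC2 at -0.27, 7 members were higher and 3 lower, with 5208 for all genes called higher and 5016 for all genes called lower. The block changed no call of a member. With any single library left out 7 members stayed higher and 3 lower. The linkage enzymes called lower dropped from 2 to 1 without DLX5 replicate 2 or control replicate 1, and the release enzymes called lower from 2 to 1 without DLX5 replicate 1 or 2 or control replicate 1 or 2. With 3 libraries a group, no exact permutation test could go below 0.1. Every scaling used takes some summary of the libraries as equal, while 58.6% of all tested genes passed. A shift in total RNA per cell, which could alter changes as small as those of GPC2, SDC1, SDC2 and SDC3, was not tested.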
